A study of Homo sapiens with 15 samples.

Results

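The 8 genes described here encode transcription factors and a coactivator that pattern the embryonic kidney: PAX2, PAX8, LHX1, SALL1, WT1, EYA1, OSR1 and GATA3. They were chosen by name from the deposited table of HEK-293T libraries, in which each stood on its own line, as 8 of 35805 genes listed. A filter on low values (at least -2 in log2 RPM, where RPM is a read count scaled by the total count of its library, in 3 or more libraries) left 16787 genes for testing. PAX2, LHX1, SALL1, WT1, EYA1 and GATA3 passed it in all 15 libraries, and PAX8 and OSR1 did not pass.

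HEK-293T is a human embryonic kidney line, and its transcriptome was measured by strand-specific polyA RNA-seq in 5 groups of 3 libraries. Cells of sg2-THAP1 and sg1-THAP1 received Cas9 and a guide against THAP1, a zinc-finger transcription factor, those of sg2-Control and sg1-Control received Cas9 and a control guide, and the last group was untransduced and labelled wild-type. Both guides of a kind were pooled as sgTHAP1 and sgControl, with 6 libraries each. Per the study's methods, THAP1 was disrupted in a GFP knock-in reporter line of PSMB5 that also expresses exogenous PSMB5, and the THAP1-guide cells were sorted for dim GFP and kept as a population, so that guide and sort cannot be told apart. The labels do not say whether the untransduced cells were of this line, and their PSMB5 level is given below. The vector, Cas9 and control guide that set sgControl apart from untransduced cells likewise cannot be told apart. Libraries of the same guide share that guide and may share a cell population, which is not stated, and p-values pooled over guides treat them as independent.

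The mammalian kidney arises from intermediate mesoderm. The nephric duct and ureteric bud branch into a cap of nephron progenitors, which condense, turn epithelial and form nephrons. OSR1 marks the early intermediate mesoderm. PAX2 and PAX8, paired-box factors that act partly redundantly in mouse, specify the nephric lineage together with the LIM-homeodomain factor LHX1, and GATA3 acts in the nephric duct. EYA1, a phosphatase that serves as coactivator of homeodomain proteins such as SIX2, SALL1, a zinc-finger repressor, and WT1, a zinc-finger factor later kept in podocytes, act in the progenitors.

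The libraries held 30645100 to 47754887 reads in sgTHAP1, 31900204 to 56638455 in sgControl and 30400149 to 36548569 in untransduced cells. A count of 3 reads, taken as the floor of detection, was worth 0.053 to 0.0987 RPM. The THAP1 transcript stood at 6.06 to 6.18 log2 RPM with sg2-THAP1 and 5.48 to 5.56 with sg1-THAP1, against 3.25 to 3.49 with sg2-Control, 3.39 to 3.57 with sg1-Control and 3.36 to 3.46 in untransduced cells. The transcript was thus higher in every library with a THAP1 guide than in all others, and the cause of this was not tested. Cas9 can disrupt the protein without reducing its RNA, so loss of the protein cannot be read from this transcript. PSMB5 lay at 11.50 to 11.53 log2 RPM with sg2-THAP1 and 11.32 to 11.36 with sg1-THAP1. It stood at 11.91 to 11.93 with sg2-Control, 11.88 to 11.95 with sg1-Control and 11.74 to 11.77 in untransduced cells. The libraries with THAP1 guides were thus the lowest, and exogenous and endogenous PSMB5 were not told apart here. PSMB6, another catalytic proteasome subunit, stood at 6.23 to 6.30 log2 RPM in untransduced cells, so PSMB5 was far above it in that group too. Of 30 markers of mature nephron segments, 12 passed the filter, the proximal transporter SLC22A6 and the tight-junction gene CLDN16 had 0 reads in every library, and the summed level of the 30 was 92.4 to 113 RPM in sgTHAP1, 114 to 134 in sgControl and 151 to 158 in untransduced cells. Most segment markers were thus absent or low in every group.

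RefSeq promoter sequences (GRCh38.p14) were matched for 4 of the 8 genes. Those of GATA3, WT1 and PAX2 are shown because the RNA of these genes differed between cells with guides and untransduced cells, WT1 in the opposite direction to the other two. Each is the 250 bases before the RefSeq start nearest to the deposited gene start, read 5′ to 3′ on the gene's strand, at chr10:8053391-8053640 (plus) for GATA3, chr11:32435540-32435789 (minus) for WT1 and chr10:100735146-100735395 (plus) for PAX2. Capitals mark 2 motifs on either strand, GCGNGGGCG, the site shared by WT1 and EGR factors, and TNNNGGCA, the consensus of THAP1 sites.
GATA3: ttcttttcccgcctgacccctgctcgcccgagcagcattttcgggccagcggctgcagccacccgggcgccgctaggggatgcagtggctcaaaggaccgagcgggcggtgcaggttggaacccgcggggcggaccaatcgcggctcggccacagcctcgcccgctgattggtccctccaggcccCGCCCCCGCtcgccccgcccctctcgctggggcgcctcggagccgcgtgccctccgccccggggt
WT1: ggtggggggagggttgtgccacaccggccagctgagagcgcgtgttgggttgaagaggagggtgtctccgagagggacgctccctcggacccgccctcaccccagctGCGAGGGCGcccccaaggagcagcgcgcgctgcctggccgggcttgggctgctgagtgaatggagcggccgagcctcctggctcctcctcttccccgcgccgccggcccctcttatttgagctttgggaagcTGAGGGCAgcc
PAX2: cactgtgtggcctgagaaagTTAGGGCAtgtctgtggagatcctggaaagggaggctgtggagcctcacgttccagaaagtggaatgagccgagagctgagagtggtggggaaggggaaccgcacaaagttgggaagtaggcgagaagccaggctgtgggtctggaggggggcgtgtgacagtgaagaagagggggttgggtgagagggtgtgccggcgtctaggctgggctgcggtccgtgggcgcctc
GATA3 and WT1 each held 1 match to GCGNGGGCG, which 8.41% of 35116 RefSeq promoters hold in these 250 bases, and WT1 and PAX2 each held 1 match to TNNNGGCA, which 35.7% hold. GC made up 74.8% of the bases of GATA3, 70.4% of WT1 and 61.6% of PAX2. A match is a string of letters and not a measured binding site.

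Levels between genes were compared per length, as RPM per kb of exon (the union of GENCODE 44 exons). GENCODE 44 reaches beyond the deposited bounds of EYA1 (end 71592025 against 71362232) and of GATA3 (start 8045378 against 8053604), for example. Exons outside the counted region may thus lower the levels per length of these genes. SALL1 was the highest of the 8, at 4.42 ± 0.50 in sgTHAP1, 4.48 ± 0.17 in sgControl and 3.93 ± 0.10 in untransduced cells (SD, n = 6, 6 and 3). GATA3 was next, at 1.23 ± 0.25 in sgTHAP1, 0.943 ± 0.096 in sgControl and 2.79 ± 0.18 in untransduced cells, and WT1 stood at 0.813 ± 0.025 in sgTHAP1, 0.800 ± 0.049 in sgControl and 0.561 ± 0.033 in untransduced cells. In sgTHAP1 and in sgControl the ranges of GATA3 and WT1 overlapped, whereas in untransduced cells GATA3 was well above WT1. Lower down, PAX2 had 0.208 ± 0.046 in sgTHAP1, 0.256 ± 0.044 in sgControl and 0.426 ± 0.017 in untransduced cells. LHX1 had 0.182 ± 0.024 in sgTHAP1, 0.257 ± 0.056 in sgControl and 0.283 ± 0.056 in untransduced cells, and EYA1 had 0.0992 ± 0.0294 in sgTHAP1, 0.161 ± 0.018 in sgControl and 0.340 ± 0.083 in untransduced cells. PAX2 and LHX1 differed by less than their spread in sgTHAP1 and in sgControl, as did LHX1 and EYA1 in untransduced cells.

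OSR1 and PAX8 were at the edge of detection or below it. OSR1 had 0, 3 and 2 reads with sg2-THAP1 and 13, 2 and 1 with sg1-THAP1, against 4, 2 and 5 with sg2-Control, 0, 5 and 0 with sg1-Control and 0, 2 and 2 in untransduced cells. Of the 15 libraries, 11 had no more than 3 reads, and no difference between groups was detectable at this depth. PAX8 had 0 reads in each of the 15 libraries, which allows a level of up to 0.0628 to 0.0979 RPM in a library of sgTHAP1, 0.053 to 0.094 in sgControl and 0.0821 to 0.0987 in untransduced cells, counting error only. It was among 9925 of the 35805 listed genes (27.7%) without a read in any library.

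The relatives and partners of these factors, on the same scale per length, ranged widely. SIX2, the homeodomain factor of nephron progenitors and a partner of EYA proteins, stood at 15.5 in sgTHAP1, 12.3 in sgControl and 8.29 in untransduced cells. It was thus far above EYA1 in every group. Among the other EYA genes, EYA3 had 8.81 in sgTHAP1, 10.9 in sgControl and 9.76 in untransduced cells, and EYA2 and EYA4 lay between 1.62 and 2.46 in the group means, all above EYA1. GATA2, a haematopoietic and urogenital GATA factor, had 13.2 in sgTHAP1, 9.19 in sgControl and 6.24 in untransduced cells, well above GATA3. SALL2 was at 4.86 in sgTHAP1, 6.28 in sgControl and 7.71 in untransduced cells, of the order of SALL1, and SALL4, a pluripotency factor, was at 0.0569 in sgTHAP1, 0.124 in sgControl and 0.347 in untransduced cells. LDB1, the cofactor that LIM-homeodomain proteins such as LHX1 bind, was at 14.9 in sgTHAP1, 17.3 in sgControl and 16.3 in untransduced cells.

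The first comparison asked what differed between cells with THAP1 guides and cells with control guides. EYA1 and LHX1 fell and GATA3 rose in sgTHAP1, all by less than 2-fold, and PAX2, WT1 and SALL1 did not pass the test. These were 3 of the 6 tested factors at an adjusted p under 0.05, beside 52.8% of all tested genes (20.2% higher and 32.6% lower), so the share was near the background. At the thresholds used in the study (adjusted p under 0.001 and a change over 2-fold) 0 of 6 passed, beside 2.18% of all tested genes. The study also discounted genes that differed between untransduced cells and cells with control guides, a step not applied here. The median difference of all tested genes was -0.06 on the log2 scale.

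**Figure D1:**
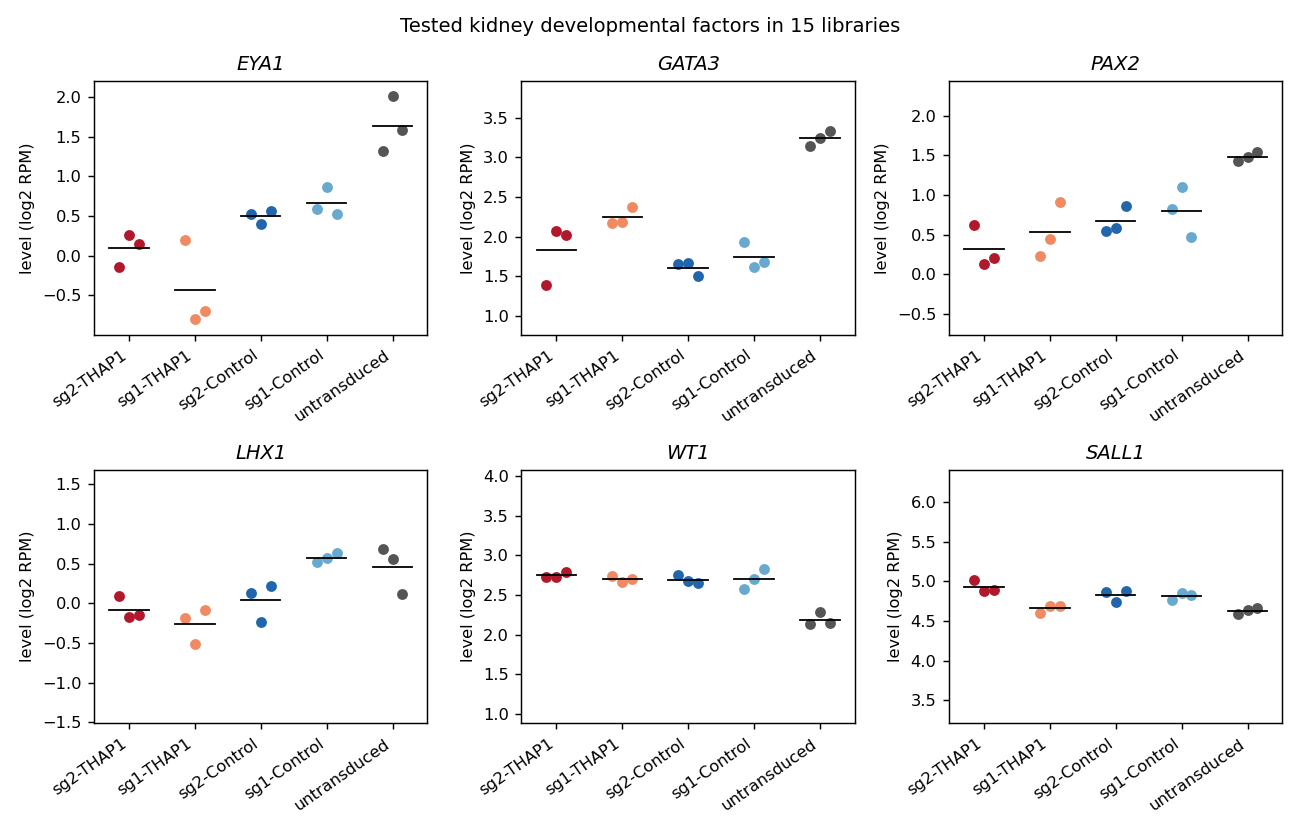
Level in log2 RPM of the 6 tested factors in each of the 15 libraries, 3 points a group, with black lines for group means and the same span of 3.2 log2 units on each vertical axis. EYA1 was lower in every sgTHAP1 library than in every sgControl library, and GATA3, PAX2 and EYA1 were highest in untransduced cells.

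EYA1 had 29, 46 and 53 reads with sg2-THAP1 and 35, 18 and 19 with sg1-THAP1, against 51, 42 and 52 with sg2-Control, 76, 103 and 51 with sg1-Control and 76, 147 and 91 in untransduced cells. On the log2 RPM scale these were levels of -0.14, 0.26 and 0.15 with sg2-THAP1 and 0.19, -0.81 and -0.70 with sg1-THAP1, against 0.52, 0.40 and 0.56 with sg2-Control, 0.59, 0.86 and 0.53 with sg1-Control and 1.32, 2.01 and 1.58 in untransduced cells. All 6 sgTHAP1 libraries lay below all 6 sgControl libraries, a pattern shown by 19.9% of all tested genes, and sgControl in turn lay below untransduced cells. The log2 difference of sgTHAP1 against sgControl was -0.75 ± 0.19 (SE, adjusted p = 0.00287), a level of 59.5% of that in sgControl. Against untransduced cells it was -1.81 ± 0.24 (adjusted p = 9.4e-07) for sgTHAP1, a level of 28.5%, and -1.06 ± 0.24 (adjusted p = 5.8e-04) for sgControl, a level of 48.0%. With sg1-THAP1 alone the difference from sgControl was -1.01, just over 2-fold, and with sg2-THAP1 alone it was -0.49 (adjusted p = 0.0282). After quantile normalization the differences from untransduced cells were smaller, at -1.08 (adjusted p = 2.9e-04) for sgTHAP1 and -0.48 (adjusted p = 0.0737, not passing) for sgControl.

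LHX1 had 34, 34 and 43 reads with sg2-THAP1 and 27, 22 and 29 with sg1-THAP1, against 39, 27 and 41 with sg2-Control, 73, 84 and 55 with sg1-Control and 49, 54 and 33 in untransduced cells. The levels were 0.09, -0.17 and -0.15 log2 RPM with sg2-THAP1 and -0.18, -0.52 and -0.09 with sg1-THAP1, against 0.14, -0.24 and 0.22 with sg2-Control, 0.53, 0.57 and 0.63 with sg1-Control and 0.69, 0.56 and 0.12 in untransduced cells. The sg1-Control libraries were the high ones among cells with guides, and those of sg2-Control overlapped sgTHAP1. The log2 difference of sgTHAP1 against sgControl was -0.48 ± 0.18 (adjusted p = 0.0313) and against untransduced cells -0.63 ± 0.22 (adjusted p = 0.0157). The difference from untransduced cells turned to 0.13 (adjusted p = 0.599) after quantile normalization and was -0.36 (adjusted p = 0.151) after median centring. sgControl against untransduced cells gave -0.15 (95% confidence interval -0.61 to 0.31, adjusted p = 0.567), a value that turned to 0.46 (adjusted p = 0.0677) after quantile normalization, 0.01 after median centring and 0.12 with sg1-Control alone. The difference of sgTHAP1 was -0.75 (adjusted p = 0.00526) with sg1-Control and -0.21 (adjusted p = 0.462) with sg2-Control as the only control, and it did not pass without replicate 1, 2 or 3 of sg1-Control (adjusted p = 0.0687, 0.0735 and 0.0771) or replicate 2 of sg1-THAP1 (0.0720). The difference from untransduced cells did not pass without untransduced replicate 1 (-0.51, adjusted p = 0.0867) or replicate 2 (-0.57, adjusted p = 0.0603) or without the filter (adjusted p = 0.0686). With sg2-THAP1 alone LHX1 passed neither against sgControl (-0.39, adjusted p = 0.151) nor against untransduced cells (-0.53, adjusted p = 0.0659).

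GATA3 had 84, 161 and 193 reads with sg2-THAP1 and 138, 143 and 159 with sg1-THAP1, against 112, 101 and 100 with sg2-Control, 193, 173 and 113 with sg1-Control and 269, 347 and 306 in untransduced cells. The levels were 1.39, 2.07 and 2.01 log2 RPM with sg2-THAP1 and 2.17, 2.18 and 2.37 with sg1-THAP1, against 1.66, 1.66 and 1.51 with sg2-Control, 1.93, 1.61 and 1.67 with sg1-Control and 3.15, 3.25 and 3.33 in untransduced cells. Of the 6 sgTHAP1 libraries, 5 lay above all sgControl libraries and replicate 1 of sg2-THAP1 lay below them. The log2 difference of sgTHAP1 against sgControl was 0.36 ± 0.13 (adjusted p = 0.0221). It was 0.15 (adjusted p = 0.340) for sg2-THAP1 alone and 0.57 (adjusted p = 7.5e-05) for sg1-THAP1 alone, and it did not pass with sg1-Control as the only control (0.29, adjusted p = 0.165), without replicate 3 of sg1-THAP1 (0.29, adjusted p = 0.0586) or without replicate 3 of sg2-Control (0.33, adjusted p = 0.0504). Against untransduced cells GATA3 fell by far more than this rise, as all 12 libraries of sgTHAP1 and sgControl lay below all 3 untransduced ones. The log2 difference was -1.21 ± 0.16 (adjusted p = 6.9e-07) for sgTHAP1 and -1.57 ± 0.16 (adjusted p = 2.1e-08) for sgControl, or 43.3% (sgTHAP1) and 33.8% (sgControl) of the untransduced level. After quantile normalization the sgTHAP1 difference was -0.67 (adjusted p = 8.9e-04), less than 2-fold.

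PAX2 had 49, 42 and 55 reads with sg2-THAP1 and 36, 43 and 58 with sg1-THAP1, against 52, 48 and 64 with sg2-Control, 90, 122 and 49 with sg1-Control and 82, 102 and 89 in untransduced cells. Its levels were 0.62, 0.13 and 0.20 log2 RPM with sg2-THAP1 and 0.23, 0.45 and 0.91 with sg1-THAP1, against 0.55, 0.59 and 0.86 with sg2-Control, 0.83, 1.11 and 0.47 with sg1-Control and 1.43, 1.48 and 1.55 in untransduced cells. The sgTHAP1 and sgControl libraries overlapped, and both lay below all untransduced libraries. The difference of sgTHAP1 against sgControl was -0.31 on the log2 scale (95% confidence interval -0.63 to 0.01, adjusted p = 0.0984), and without replicate 3 of sg1-THAP1 it was -0.41 (adjusted p = 0.0273). Against untransduced cells the log2 difference was -1.06 ± 0.19 (adjusted p = 4.2e-05) for sgTHAP1 and -0.75 ± 0.19 (adjusted p = 0.00154) for sgControl. After quantile normalization neither passed, at -0.33 (adjusted p = 0.136) for sgTHAP1 and -0.17 (adjusted p = 0.438) for sgControl.

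WT1 had 199 to 331 reads in sgTHAP1, 204 to 369 in sgControl and 133 to 178 in untransduced cells. The levels were 2.73, 2.73 and 2.79 log2 RPM with sg2-THAP1 and 2.73, 2.66 and 2.70 with sg1-THAP1, against 2.76, 2.68 and 2.65 with sg2-Control, 2.58, 2.70 and 2.83 with sg1-Control and 2.13, 2.28 and 2.15 in untransduced cells. The sgTHAP1 and sgControl libraries overlapped closely and all 12 lay above the untransduced ones. The log2 difference of sgTHAP1 against sgControl was 0.03 (95% confidence interval -0.12 to 0.17, adjusted p = 0.780), and it was -0.002 for sg1-THAP1 alone. Against untransduced cells it was 0.54 ± 0.08 (adjusted p = 8.7e-06) for sgTHAP1 and 0.51 ± 0.08 (adjusted p = 1.9e-05) for sgControl, or 145% (sgTHAP1) and 143% (sgControl) of the untransduced level. These differences were larger after quantile normalization, at 1.15 for sgTHAP1 and 0.99 for sgControl, and after median centring the sgTHAP1 difference was 0.81.

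SALL1 had 741 to 1418 reads in sgTHAP1, 850 to 1635 in sgControl and 734 to 910 in untransduced cells, the deepest coverage of the 8 genes. Its levels were 5.02, 4.88 and 4.89 log2 RPM with sg2-THAP1 and 4.60, 4.69 and 4.69 with sg1-THAP1, against 4.86, 4.74 and 4.87 with sg2-Control, 4.76, 4.85 and 4.83 with sg1-Control and 4.59, 4.64 and 4.66 in untransduced cells. The libraries of sg2-THAP1 lay above all sgControl libraries and those of sg1-THAP1 below them. Pooled, sgTHAP1 against sgControl gave a log2 difference of -0.03 (95% confidence interval -0.15 to 0.10, adjusted p = 0.751), and sg1-THAP1 alone gave -0.16 (adjusted p = 0.00587). The pooled value turned to 0.05 after quantile normalization, 0.09 after median centring, 0.04 with array weights and 0.01 without replicate 1 of sg1-THAP1, and sg2-THAP1 alone gave 0.11 (adjusted p = 0.0566), none of them passing. Against untransduced cells it was 0.16 ± 0.07 (adjusted p = 0.0546) for sgTHAP1, with 5 of 6 libraries above the untransduced ones, and 0.19 ± 0.07 (adjusted p = 0.0300) for sgControl, with all 6 libraries above. The sgControl difference did not pass without untransduced replicate 1, 2 or 3 (adjusted p = 0.101, 0.0665 and 0.0507) without replicate 1 or 3 of sg2-Control (0.0505 and 0.0529), or with sg1-Control or sg2-Control alone (0.0932 and 0.0858), and it was 0.34 (adjusted p = 4.3e-05) after median centring. The sgTHAP1 difference passed without replicate 1, 2 or 3 of sg1-THAP1 (adjusted p = 0.0130, 0.0352 and 0.0342). It also passed after quantile normalization (0.31, adjusted p = 1.3e-04) and median centring (0.43, adjusted p = 1.9e-06), with array weights (0.23, adjusted p = 0.00135), with 1 coefficient per group (0.16, adjusted p = 0.0026) and for sg2-THAP1 alone (0.30, adjusted p = 2.8e-05).

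The next comparisons set cells with guides against untransduced cells and share the untransduced libraries. In sgControl against untransduced cells, EYA1, GATA3 and PAX2 fell and WT1 and SALL1 rose, 5 of the 6 tested factors beside 68.6% of all tested genes (28.1% higher and 40.5% lower). The groups did not overlap for these 5, the 3 below in a class that held 39.8% of tested genes and the 2 above in one that held 27.3%. In sgTHAP1 against untransduced cells, EYA1, GATA3, PAX2 and LHX1 fell and WT1 rose, again 5 of 6, beside 72.4% of all tested genes (26.9% higher and 45.5% lower). There the groups did not overlap for the 4 below (41.4% of tested genes) and for WT1 above (23.5%). At the study's thresholds GATA3 and EYA1 passed for sgControl (11% of tested genes), and GATA3, EYA1 and PAX2 for sgTHAP1 (15.9%). The fall of LHX1 is a result that turned under another scaling, as given above.

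Lowly expressed genes as a class were lower in cells with guides than in untransduced cells. Among the 999 tested genes with a mean level of 0 to 1 log2 RPM, the class of PAX2, LHX1 and EYA1, the median log2 difference was -0.11 in sgTHAP1 against sgControl, -0.62 in sgControl against untransduced cells and -0.73 in sgTHAP1 against untransduced cells. Among the 2909 genes at 2 to 4 log2 RPM, the class of WT1 and GATA3, the medians were -0.10, -0.32 and -0.42 in the same comparisons, and among the 5120 genes at 4 to 6, the class of SALL1, they were -0.05, -0.003 and -0.06. PAX2 (-0.75) and EYA1 (-1.06) in sgControl against untransduced cells lay below the median of their class but between its quartiles (-1.16 and -0.04). GATA3 (-1.57) lay below the lower quartile of its class (-0.72), and WT1 (0.51) above the upper quartile (0.05). In sgTHAP1 against sgControl, EYA1 (-0.75) lay below the lower quartile of its class (-0.50), while PAX2 (-0.31) and LHX1 (-0.48) lay between the quartiles. Against untransduced cells in sgTHAP1, EYA1 (-1.81) also lay below the lower quartile (-1.37), and PAX2 (-1.06) and LHX1 (-0.63) lay between the quartiles. The share of reads in listed genes was 93.3% to 94.5% in sgTHAP1, 92.7% to 93.2% in sgControl and 90.8% to 91.0% in untransduced cells, and its part in the result was not tested.

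**Figure D2:**
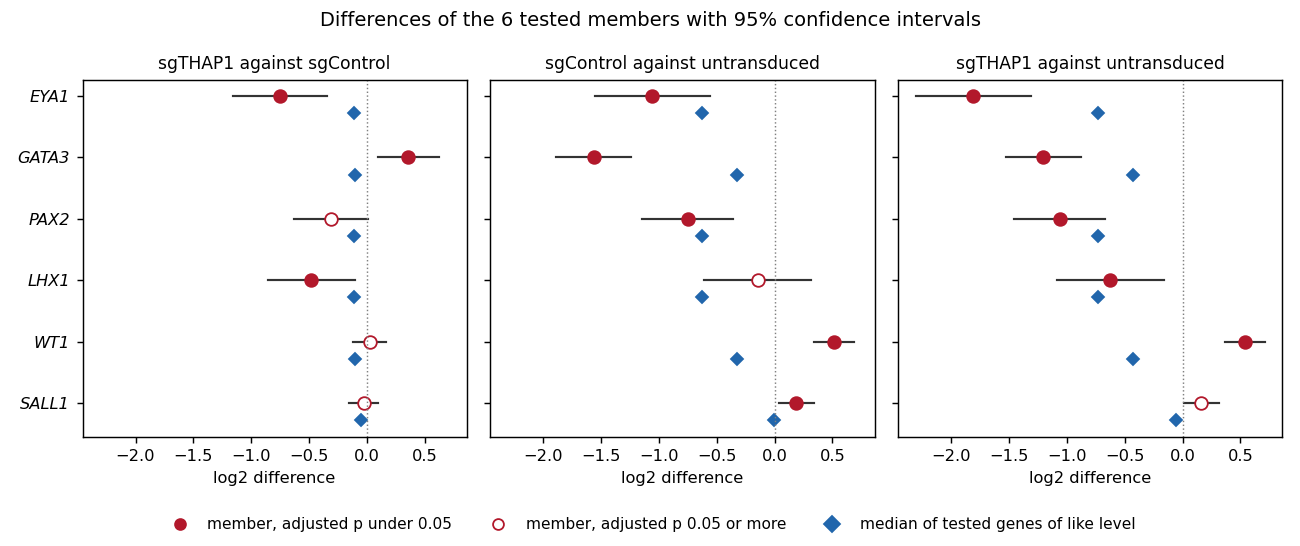
Log2 differences of the 6 tested factors (circles, with lines for 95% confidence intervals) in 3 comparisons, filled where the adjusted p was under 0.05. Blue diamonds give the median of all tested genes of the same level class, for example -0.62 for the class of EYA1 in sgControl against untransduced cells, where EYA1 was at -1.06.

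The THAP1 guides differed from each other for SALL1 and GATA3. SALL1 was higher with sg2-THAP1 than with sg1-THAP1 by 0.27 ± 0.06 on the log2 scale (adjusted p = 1.0e-04) and GATA3 was lower by 0.41 on that scale (log2 difference -0.41 ± 0.15, adjusted p = 0.0206), which were 2 of 6 tested factors beside 40% of all tested genes. For SALL1 it was 0.18 after quantile normalization and 0.17 after median centring, both still passing. At the study's thresholds 0 of 6 passed, beside 0.542% of all tested genes. GATA3 did not pass without replicate 1 of sg2-THAP1 (-0.20, adjusted p = 0.306) or replicate 3 of sg1-THAP1 (-0.35, adjusted p = 0.0914). For EYA1 the difference was 0.53 ± 0.25 (adjusted p = 0.0955) and, without replicate 1 of sg1-THAP1, 0.84 (adjusted p = 0.00895). PAX2, WT1 and LHX1 gave -0.21 (95% confidence interval -0.67 to 0.24), 0.05 (-0.16 to 0.27) and 0.18 (-0.35 to 0.71), of which the value of WT1 turned to -0.03 after quantile normalization and -0.05 after median centring. Between sg2-Control and sg1-Control 0 of 6 factors passed in limma, beside 3.88% of all tested genes, with LHX1 alone at an unadjusted p under 0.05 (log2 difference -0.54 ± 0.26, unadjusted p = 0.0462, adjusted p = 0.298). On reads recovered from the values, voom also called 0 of these 6.

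Over the 15 libraries, the level of WT1 ran opposite to those of GATA3 (Pearson r of -0.87) and PAX2 (-0.85), and PAX2 ran with EYA1 (0.70). These are descriptions over libraries that share groups and depth. The tested genes whose levels followed each factor most closely were MANEA-AS1, MDGA1 and C20orf96 for PAX2 (r of 0.95, 0.95 and 0.94), JPH3, ELOVL7 and RAD9A for LHX1 (0.88, 0.86 and 0.85) and PKIB, FIGN and KIF21B for EYA1 (0.96 for each). For SALL1 they were SUV39H2, FOXI3 and PIK3CB (0.92 for each), for WT1 URM1, HCCS and TPRG1L (0.97 for each), and for GATA3 RP3-460G2.2, ODF2L and MIR1199 (0.98, 0.97 and 0.97). FIGN, for example, had 3.15 to 3.55 log2 RPM in sgTHAP1, 3.70 to 3.98 in sgControl and 4.70 to 4.76 in untransduced cells, the same stepwise order as EYA1. These genes were picked from all tested genes for their likeness over these same libraries, so a shared order is no separate result.

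Several factors have a neighbouring or antisense gene within 10 kb. Positions are those of the deposited table on GRCh38, and whether its counting used strand is not given in the sources used here. PAX8 (chromosome 2, 113215997 to 113278950, minus strand) is overlapped over 60585 bases by PAX8-AS1, which had 0 to 3 reads in sgTHAP1, 0 to 13 in sgControl and 0 to 3 in untransduced cells. PSD4, beside PAX8, was at -0.03 in sgTHAP1 against sgControl and fell in sgControl against untransduced cells (-0.65, adjusted p = 0.0115). GATA3 (chromosome 10, 8053604 to 8075198, plus strand) lies beside the divergent GATA3-AS1, with 3, 0 and 1 reads in sg2-THAP1, 0, 0 and 3 in sg1-THAP1, 1, 0 and 0 in sg2-Control, 1, 2 and 1 in sg1-Control and 13, 8 and 4 in untransduced cells. The untransduced libraries were thus the high ones, as for GATA3 itself, though the gene did not pass the filter.

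WT1-AS overlaps the start of WT1 (chromosome 11, 32387775 to 32435630, minus strand) over 113 bases. It fell in sgControl against untransduced cells (log2 difference -1.38, adjusted p = 0.0140), while WT1 rose, and was at 0.87 (adjusted p = 0.064) in sgTHAP1 against sgControl. LHX1 (chromosome 17, 36936785 to 36944612, plus strand) has the divergent RP11-445F12.1 beside it, which fell in sgControl (-0.87, adjusted p = 0.00394) and in sgTHAP1 (-1.29) against untransduced cells. AATF, also within 10 kb of LHX1, rose in sgControl (0.75) and in sgTHAP1 (0.82). The neighbours of OSR1 (LINC01376, 0 to 13 reads), SALL1 (AC009166.5, 0 to 7 reads) and EYA1 (a non-coding RNA with 0 reads) were at or near the floor. The remaining neighbours of PAX8, LHX1 and GATA3 had at most 5 reads, and no gene was listed within 10 kb of PAX2.

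Wider lists of kidney genes were then counted in sgTHAP1 against sgControl, beside the median of -0.06 and the shares of 20.2% higher and 32.6% lower over all tested genes. Of 22 tested family relatives of the 8 factors (28 listed), 4 rose, 10 fell and 8 did not pass, with a median of -0.05 that turned to 0.09 after quantile normalization and 0.06 after median centring. GATA2 rose (0.52 ± 0.04) and so did LHX8, a LIM-homeodomain relative of LHX1 (0.74 ± 0.13), whereas EYA3 fell (-0.30 ± 0.04). Of 20 tested partner proteins (23 listed), 2 rose, 9 fell and 9 did not pass, with a median of -0.11 that turned to 0.01 after median centring. DACH1, a partner of EYA proteins (-0.92 ± 0.06), and the homeodomain factor SIX4 (-0.61 ± 0.05) fell, as did the corepressor TLE4 (-0.72 ± 0.07), while SIX2 rose (0.34 ± 0.05).

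Of 25 tested further kidney transcription factors (36 listed), 4 rose, 12 fell and 9 did not pass (median -0.29). The 3 with the smallest adjusted p, CITED2, a coactivator-binding factor, HEY1, a NOTCH target, and MECOM, a zinc-finger factor of distal segments, fell by 0.79, 0.29 and 0.62 on the log2 scale. Of 20 tested signalling genes of kidney branching and induction (24 listed), 0 rose in limma, 13 fell and 7 did not pass (median -0.41). At an unadjusted p under 0.05, 1 gene was higher, voom called 0 higher, and either rescaling, by quantile normalization or median centring, called 2 higher. BMP7, which keeps nephron progenitors alive, fell (-0.40 ± 0.04), as did ROBO2, a SLIT receptor that limits the budding site (-1.02 ± 0.13), and GFRA1, the GDNF coreceptor (-1.33 ± 0.18). All 3 were also lower in sgControl than in untransduced cells, by -0.39, -1.22 and -1.52. Of the 12 tested nephron markers, 1 rose, 6 fell and 5 did not pass (median -0.34). LRP2, the endocytic receptor megalin, fell by 1.80, PODXL, the podocyte sialomucin, by 0.48 and CDH1, the epithelial cadherin, by 1.78. Each gene named in these lists kept its direction and its call in this comparison under both rescalings. All but SIX2 were named for the smallest adjusted p of their list in this same comparison, so this does not bear on the lists. The medians of the last 3 lists stayed below 0. The counts moved toward more genes higher: 6 and 7 of the relatives, 5 and 6 of the partners, 5 and 6 of the further factors and 3 and 3 of the nephron markers were called higher after quantile normalization and median centring.

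**Figure D3:**
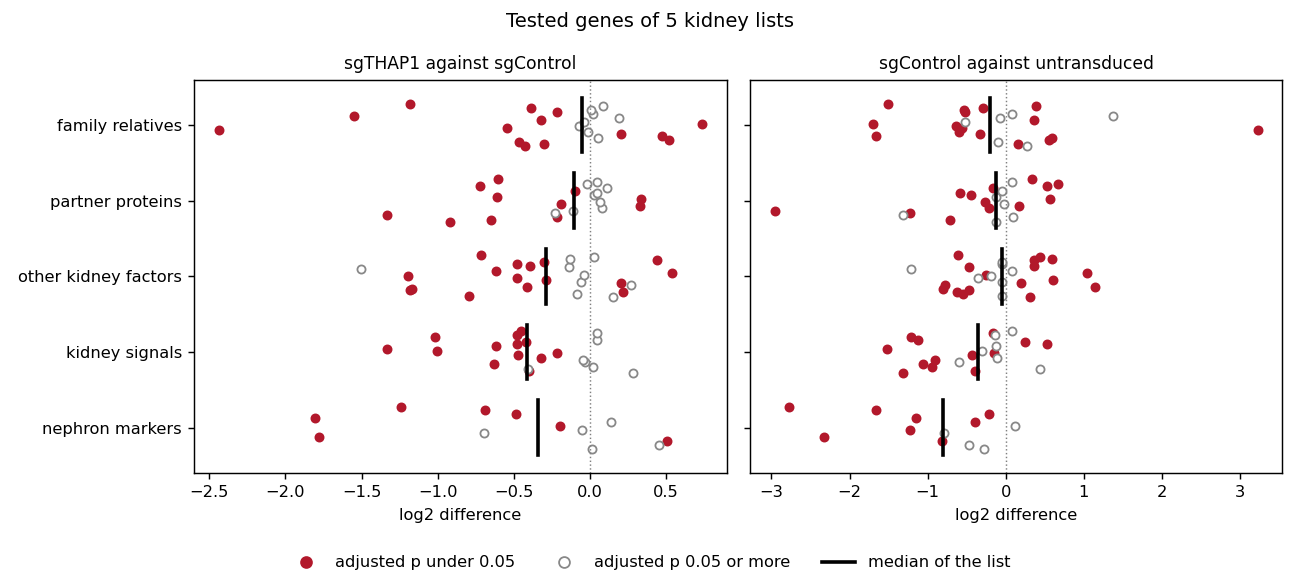
Log2 differences of the tested genes of 5 kidney lists, 1 point a gene, in sgTHAP1 against sgControl and in sgControl against untransduced cells, with black bars for list medians and red points for an adjusted p under 0.05. The signalling list had no red point right of 0 in sgTHAP1 against sgControl and a median of -0.41.

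Against untransduced cells the signalling list had 2 genes higher and 11 lower of 20 in sgControl (median -0.35) and 0 higher and 16 lower in sgTHAP1 (median -0.77), where the medians of all tested genes were -0.12 and -0.20. The nephron markers had 0 higher and 8 lower of 12 (median -0.80) in sgControl and 0 higher and 7 lower (median -0.99) in sgTHAP1. Where 0 were higher in limma, 0 were higher at an unadjusted p under 0.05 and by voom too, although rescaling called some higher. Quantile normalization called 4 signalling genes and 2 nephron markers higher in sgTHAP1, and median centring 2 signalling genes in sgTHAP1 and 1 nephron marker in each of sgTHAP1 and sgControl. In contrast to these, the further kidney factors were split in sgControl, with 9 higher and 8 lower of 25 and a median of -0.05 that turned to 0.07 after quantile normalization and 0.11 after median centring. In sgTHAP1 8 were higher and 14 lower, with a median of -0.41 that turned to 0.05 after quantile normalization. After quantile normalization these counts were 11 higher and 2 lower in sgControl and 9 higher and 7 lower in sgTHAP1. The family relatives had 6 higher and 10 lower of 22 in sgControl and 3 higher and 11 lower in sgTHAP1, and the partners had 5 higher and 8 lower of 20 in sgControl and 3 higher and 13 lower in sgTHAP1, beside the shares of 28.1% higher and 40.5% lower in sgControl and 26.9% higher and 45.5% lower in sgTHAP1 over all tested genes. These counts depended on the scaling. The relatives had 9 higher and 5 lower in sgControl and 8 higher and 7 lower in sgTHAP1 after quantile normalization, and the partners had 7 higher and 5 lower in sgControl and 7 higher and 7 lower in sgTHAP1 after median centring.

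Markers of other cell types were followed beside these results. The 5 stromal markers, of which COL1A1 and LUM passed the filter, summed to 3.73 to 5.68 RPM in sgTHAP1, 8.83 to 11.5 in sgControl and 23.8 to 28.9 in untransduced cells. COL1A1 fell in sgTHAP1 against sgControl (-1.04 ± 0.09). The 7 neural markers, of which only NEFM was tested and ELAVL4 and SOX10 were at 0 reads, summed to 391 to 474 RPM in sgTHAP1, 272 to 338 in sgControl and 374 to 382 in untransduced cells, and NEFM rose (0.51 ± 0.06). The 7 T-cell markers (1 tested, CD8A, log2 difference -0.01) summed to 0.714 to 1.40 RPM in sgTHAP1, 0.653 to 1.22 in sgControl and 1.32 to 1.90 in untransduced cells, with CD3D and CD3G at 0 reads. The 4 myeloid markers (2 tested, CD14 at -0.43 and ITGAM at 0.24, neither passing) summed to 0.584 to 1.11 RPM in sgTHAP1, 0.682 to 1.25 in sgControl and 0.197 to 0.575 in untransduced cells. The 4 lung epithelial markers (2 tested, NKX2-1 falling by 0.81 and NAPSA at 0.24) summed to 0.990 to 2.08 RPM in sgTHAP1, 1.35 to 2.13 in sgControl and 5.17 to 6.27 in untransduced cells. The 4 endothelial markers (1 tested, KDR, not passing) and the 5 adrenal cortex markers (1 tested, NR5A1, which fell at an adjusted p of 0.0429 but did not pass under either rescaling, at 0.157 and 0.0570) summed to at most 0.459 and 0.547 RPM in a library. The part of the stromal and neural genes in the results was not tested.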

How the data were processed

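Groups and replicate numbers came from the sample labels and column names, and the replicates are biological per the study's methods. The authors trimmed reads with Cutadapt (4.1), aligned them to GRCh38 with HISAT2 (2.2.1) and quantified them in SeqMonk. The deposited values are log2 RPM per gene, for which the authors divided each library by its total, and a gene without reads carries the value of 0.9 read. The annotation release is not given in the sources used here. Whole reads were recovered from the steps of low values, and at least 99.7% of a library's values were whole within 0.01 of a read. The authors' columns of group means and comparisons were not used.

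Deposited log2 values were tested with limma (3.58.1, R 4.3.3), using lmFit and eBayes with a trend over all 15 libraries, Benjamini-Hochberg adjustment over 16787 genes and a threshold of 0.05. The fit was tested on simulated data. Those data held no effect shared by libraries of the same guide, so they do not test the p-values pooled over guides. Replicates of a group differed by more than sampling noise (chi-square per gene 2.38 to 4.78). Same-numbered libraries did not deviate together, with correlations of -0.13 to 0.04 over 30 pairs.

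The 8 genes and all lists were chosen with earlier results of these data known. Named besides them were neighbours within 10 kb, the 3 genes most alike each tested factor, up to 3 genes per list with the smallest adjusted p in sgTHAP1 against sgControl, and THAP1. SIX2, EYA2, EYA4, SALL2, SALL4, LDB1, PSMB5 and PSMB6 were named after their values were seen. Levels per length used GENCODE 44 exons, and promoters were RefSeq's for GRCh38.p14. Alternatives were other filters, a pseudocount, median centring, quantile normalization, array weights, voom on the recovered reads, a replicate block, stricter thresholds, 1 coefficient per group, fewer samples, each guide alone and each library left out.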

Additional observations from a re-analysis of the deposited data

Results flagged for a closer look

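GATA3 in sgTHAP1 was flagged because replicate 1 of sg2-THAP1, at 1.39 log2 RPM, lay apart from the other 5 libraries at 2.01 to 2.37, with a gap to the nearest of 0.6383 of the group's range (Dixon's test). Chance flags about 1 in 20 groups. GATA3 (log2 difference -0.4143) and SALL1 (0.2728) were flagged because they differed between sg2-THAP1 and sg1-THAP1 in limma.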

How the results depend on the processing

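Of 804 values of the 6 tested factors under the alternatives, 730 kept their direction and side of the threshold, 41 no longer passed, 12 newly passed, 20 changed sign without passing before or after, and 1 that had passed changed direction, the log2 difference of LHX1 in sgTHAP1 against untransduced cells (0.133 after quantile normalization, -0.626 as reported). At the study's thresholds the number of factors passing was 0 in sgTHAP1 against sgControl (3 as reported), 2 in sgControl (5) and 3 in sgTHAP1 (5) against untransduced cells, and 0 between the THAP1 guides (2). The other counts given here use the threshold of 0.05 without a limit on fold. By this threshold 1 factor passed for sg2-THAP1 alone and 4 for sg1-THAP1 alone against sgControl. After quantile normalization 3 passed for sgControl against untransduced cells. With each library left out in turn, the counts at an adjusted p under 0.05 ranged from 2 to 3, 4 to 5, 4 to 6 and 1 to 3. These are in the order of the 4 comparisons above, and the count stayed at 0 between the control guides. Of all tested genes, 49.8% to 52.2%, 62.6% to 69.3%, 67.3% to 72.2% and 35.5% to 40.9% passed in these 4 comparisons. Between the control guides 2.1% to 4.12% passed. A replicate block gave 3, 5, 5, 2 and 0, beside 51.1%, 67.4%, 71.4%, 39.8% and 3.94% of all tested genes. In sgTHAP1 against sgControl LHX1 also did not pass without a filter (adjusted p = 0.127), after quantile normalization (0.128) or median centring (0.0935), and GATA3 with array weights (0.0896), under which PAX2 passed (0.0437). The causes were not tested. Scaling moved the balance of all genes: called genes were lower in 61.8% as deposited, 48.1% after quantile normalization and 41.1% after median centring, which shifted the median by 0.11, in sgTHAP1 against sgControl, in 59.0%, 48.4% and 44.4% in sgControl and in 62.9%, 47.7% and 43.0% in sgTHAP1 against untransduced cells. Depth limits OSR1 and PAX8, at 0 to 13 reads, and the counts of EYA1, LHX1 and PAX2, at 18 to 147 reads a library.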
